A study of Mus musculus with 4 samples.

Results

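The 10 genes described here are Müller glia homeostatic genes, which serve the daily upkeep of the retina by its main glial cell: Kcnj10, Aqp4, Rlbp1, Glul, Slc1a3, Dkk3, Crym, Car14, Clu and Dio2. They were chosen by symbol, with earlier results of these libraries known, from the 55357 genes of the count tables, and all 10 were found and had UMIs in Müller glia of every library. Their UMIs were summed per library over barcodes gated as Müller glia with at least 3000 UMIs, over those with under 3000 UMIs, and over other cell classes. A UMI (unique molecular identifier) tags 1 captured RNA molecule, so counts were not divided by gene length.

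The samples were 4 single-cell RNA libraries of mouse retina, 2 labelled Diabetic and 2 labelled Ctrl, made with the 10x 3′ kit after enrichment with beads for CD31, an endothelial surface protein. The labels give no strain, age, diabetes model or duration, and they leave unstated whether replicate 1 and replicate 2 are different animals. The p-values therefore measure the spread between these libraries, which may be technical. Although all samples are labelled as CD31+ cells, gated rods outnumbered gated endothelial cells in each library: 3682 against 1585 in Diabetic 1, 1673 against 754 in Diabetic 2, 3534 against 715 in Ctrl 1 and 1320 against 314 in Ctrl 2. The Müller glia are thus cells that came along with the enrichment.

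Müller glia span the retina and surround its neurons, blood vessels and photoreceptors. They take up glutamate and convert it to glutamine, let potassium and water flow from neurons to vessels and vitreous, buffer pH, and bind retinoids that cones use to rebuild visual pigment. In damaged retina they can become reactive, a state called gliosis, which is commonly followed through Gfap, a filament protein.

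The gate used 14 Müller glia markers, none of them one of the 10 genes. It gave 109, 52, 144 and 74 cells with at least 3000 UMIs in Diabetic 1, Diabetic 2, Ctrl 1 and Ctrl 2, holding 665572, 535251, 986808 and 822208 UMIs. A further 179, 86, 115 and 115 cells in the same order had under 3000 UMIs, and these held only 197865, 101965, 125633 and 129369 UMIs. Each library held 29792902 to 58792636 UMIs over 3091 to 7991 barcodes, and 12 to 20 barcodes of each library also occurred in another library.

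The gate had a second level, added after the data were seen, because the 14 markers by themselves also admitted a few large barcodes of another kind. It was set on the shares of 12 markers, without Apoe and Dapl1, which were also high in those barcodes. The 10 genes were not used to set it. In Diabetic 1 and Diabetic 2, the second level removed 8 and 7 barcodes with at least 3000 UMIs, which held 10.9% and 22.4% of the UMIs. In Ctrl 1 it removed 0, and in Ctrl 2 it removed 3, with 3.89%. The 10 genes made up 1.09%, 0.945% and 1.39% of the UMIs of these barcodes in Diabetic 1, Diabetic 2 and Ctrl 2. In the cells kept, they made up 2.29%, 2.34% and 2.64% in the same order. Under 3000 UMIs it removed 20, 10, 9 and 6 barcodes in Diabetic 1, Diabetic 2, Ctrl 1 and Ctrl 2. Of the removed barcodes, 5 in Diabetic 1, 4 in Diabetic 2 and 1 in Ctrl 2 carried at least 10 UMIs of Optc and Penk together, genes that are not Müller glia markers of the gate. They are given no cell type name here, and values with them are given beside the results they touch.

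Promoter sequences from the RefSeq table were available for 6 of the 10 genes. The 250 bases upstream of the RefSeq start site (build GRCm38.p6, sense strand, 5′ to 3′) are shown for the 4 of these genes whose levels in Müller glia with at least 3000 UMIs were lower in both Diabetic libraries than in either Ctrl library. Capitals mark the motifs searched on both strands: TATAAA (the TATA box core), TGACGTCA (the cAMP response element), TTCNNNGAA (the STAT type) and TAATTA (the homeodomain core).
Kcnj10, chr1:172340960-172341209, plus strand: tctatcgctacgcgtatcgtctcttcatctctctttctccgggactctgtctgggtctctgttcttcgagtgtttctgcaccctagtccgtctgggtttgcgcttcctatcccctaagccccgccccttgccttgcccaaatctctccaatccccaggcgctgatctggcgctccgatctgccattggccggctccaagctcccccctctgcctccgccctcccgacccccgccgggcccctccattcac
Rlbp1, chr7:79387028-79387277, minus strand: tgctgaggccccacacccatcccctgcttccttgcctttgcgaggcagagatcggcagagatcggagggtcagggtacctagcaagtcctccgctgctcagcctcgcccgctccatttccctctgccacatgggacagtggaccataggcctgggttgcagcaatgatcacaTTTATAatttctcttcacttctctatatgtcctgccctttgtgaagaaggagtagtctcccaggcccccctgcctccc
Slc1a3, chr15:8710808-8711057, minus strand: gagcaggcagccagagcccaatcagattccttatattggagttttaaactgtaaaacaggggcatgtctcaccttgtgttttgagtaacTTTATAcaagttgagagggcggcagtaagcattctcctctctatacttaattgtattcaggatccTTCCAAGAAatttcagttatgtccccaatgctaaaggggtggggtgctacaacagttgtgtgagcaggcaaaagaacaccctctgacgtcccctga
Dio2, chr12:90739039-90739288, minus strand: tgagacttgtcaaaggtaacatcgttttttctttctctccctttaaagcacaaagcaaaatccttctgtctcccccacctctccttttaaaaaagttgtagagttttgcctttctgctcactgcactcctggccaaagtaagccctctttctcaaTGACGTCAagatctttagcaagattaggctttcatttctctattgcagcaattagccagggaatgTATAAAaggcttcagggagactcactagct

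The Dio2 window held TGACGTCA starting 95 bases and TATAAA starting 30 bases upstream of the start site. TATAAA or its reverse complement was also found 161 bases upstream in Slc1a3 and 78 bases upstream in Rlbp1, and TTCNNNGAA 96 bases upstream in Slc1a3. The Kcnj10 window, at 62% G and C, held none of the 4 motifs. Of all 32851 windows in the table, 12.4% held TATAAA, 1.55% TGACGTCA, 7.02% TTCNNNGAA and 4.84% TAATTA. No motif of the 4 searched was common to the 4 genes, and a match is a description of these letters and not a binding site. The RefSeq start of Dio2 lies 600 bases upstream of the start of its GENCODE annotation, which the coordinates below follow.

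Across the 4 libraries, Müller glia with at least 3000 UMIs held the 10 genes at mean levels from 111 to 10010 CPM. Levels are in CPM, a gene's UMIs scaled to 1000000 UMIs of the gated cells. Glul, which encodes glutamine synthetase, was at 10010 ± 1317 CPM (SD, n = 4 libraries), followed by Clu at 3910 ± 265 CPM, Rlbp1 at 2999 ± 297 CPM, Dkk3 at 2220 ± 172 CPM, Aqp4 at 1726 ± 84.8 CPM and Slc1a3 at 1262 ± 128 CPM. Car14 followed at 670 ± 49.8 CPM, Crym at 578 ± 53.9 CPM, Kcnj10 at 286 ± 49.99 CPM and Dio2 at 111 ± 24.9 CPM. Only Car14 and Crym, neighbours in this order, had overlapping ranges over the 4 libraries.

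In Müller glia with at least 3000 UMIs, 7 of the 10 genes were lower in both Diabetic libraries than in either Ctrl library: Dio2, Kcnj10, Slc1a3, Rlbp1, Crym, Dkk3 and Aqp4. The other 3, Glul, Car14 and Clu, overlapped between the groups. The changes were small: the fitted log2 fold changes (Diabetic over Ctrl, edgeR quasi-likelihood fit across all genes) had a median of -0.21 and ran from -0.58 to 0.09. Over all 9309 genes tested the median was -0.0027, 50.4% of fold changes were below 0, and 17.1% of genes were lower in both Diabetic libraries. None of the 10 genes passed an adjusted p of 0.05, 1 had an unadjusted p under 0.05, and DESeq2 also called 0 of the 10. In all genes, edgeR called 14 higher in Diabetic (0.15%) and 2 lower (0.0215%). These counts were 138 and 42 without Ctrl 2, 51 and 30 without Ctrl 1, 13 and 7 without Diabetic 2, and 15 and 0 without Diabetic 1, with 0 of the 10 genes called each time. Because this contrast was known when the genes were chosen, their values are a description and no test is drawn from them.

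Other measures moved with this difference. The 14 gate markers together were also lower in Diabetic Müller glia, at 21401 and 20056 CPM against 24038 and 24602 CPM in Ctrl, a ratio of the group means of 0.852. Marker lists of endothelial cells were higher, at 1457 and 1285 CPM in Diabetic against 1166 and 1130 CPM in Ctrl, with all 11 markers detected. Neutrophil markers stood at 22.5 and 24.3 CPM in Diabetic against 1.01 and 1.22 CPM in Ctrl, with 5 of 7 detected and Ly6g and Mmp9 at 0. All 11 microglial markers were detected, at 57.1 and 41.1 CPM in Diabetic against 29.4 and 30.4 CPM in Ctrl, and the 4 astrocyte markers at 155 and 262 CPM in Diabetic against 129 and 124 CPM in Ctrl. All 10 rod markers were detected and overlapped between the groups, at 10963 and 9472 CPM in Diabetic against 10317 and 7684 CPM in Ctrl. The median mitochondrial share was 2.66% and 4.62% in Diabetic against 5.13% and 6.31% in Ctrl. The part of these in the result was not tested.

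**Figure D1:**
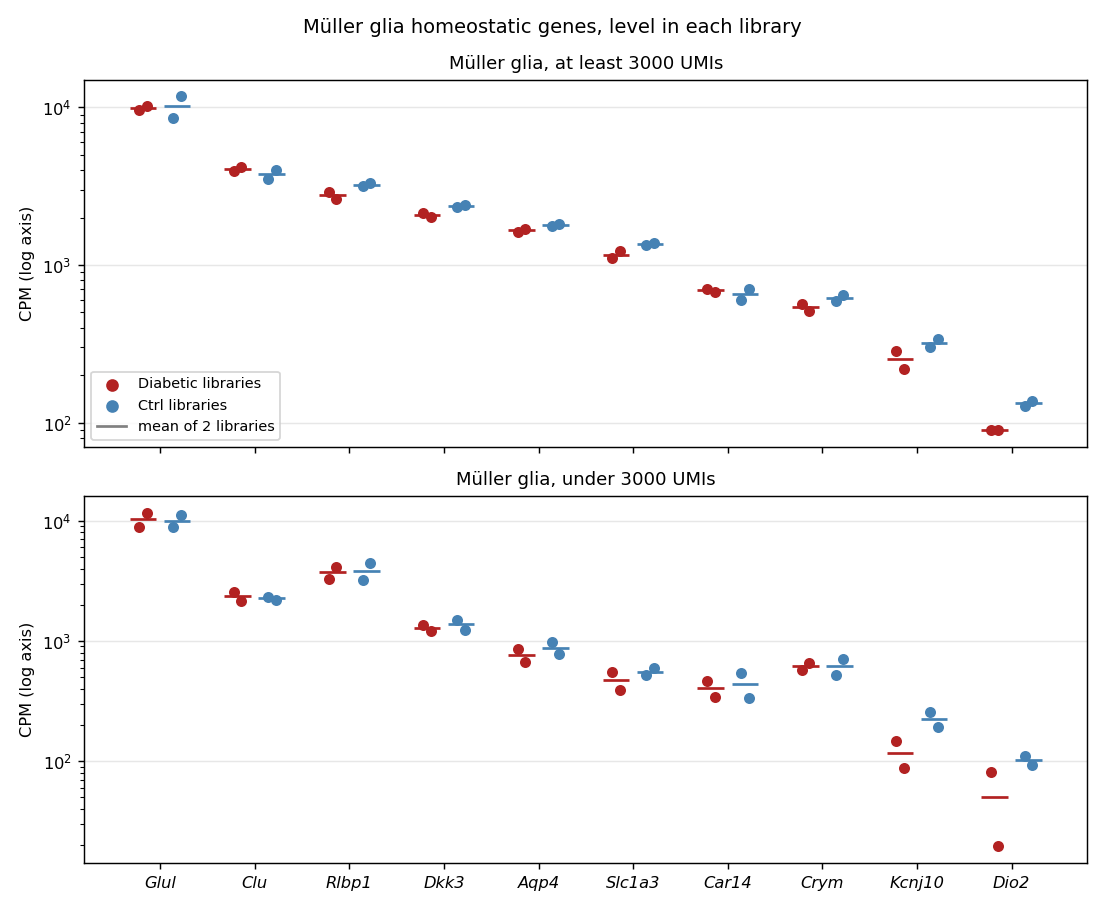
Level of each gene in CPM (log axis) in each Diabetic library (red, left) and Ctrl library (blue, right), with the mean of 2 libraries as a bar, for Müller glia with at least 3000 UMIs (top) and under 3000 UMIs (bottom). In the top panel 7 genes are lower in both Diabetic libraries without overlap, and in the bottom panel Kcnj10 and Dio2 are.

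Kcnj10 (ENSMUSG00000044708, GRCm38 chr1:172341210-172374085, plus strand) encodes Kir4.1, the inward rectifier channel through which Müller glia siphon potassium. It had 284 and 220 CPM in Diabetic Müller glia with at least 3000 UMIs (189 and 118 UMIs), against 301 and 341 CPM in Ctrl (297 and 280 UMIs). Both Diabetic libraries were lower than both Ctrl libraries, and the gap between Diabetic 1 and Ctrl 1 was smaller than that between the 2 Diabetic libraries. The log2 fold change was -0.37 ± 0.18 (SE). In cells with under 3000 UMIs, Kcnj10 had 147 and 88.3 CPM in Diabetic against 255 and 193 CPM in Ctrl, again without overlap, with a log2 fold change of -0.88 ± 0.35.

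Aqp4 (ENSMUSG00000024411, chr18:15389496-15410982, minus strand) encodes the water channel that sits with Kir4.1 in Müller glia endfeet. It had 1618 and 1700 CPM in Diabetic cells with at least 3000 UMIs, against 1775 and 1809 CPM in Ctrl. The groups did not overlap, but the log2 fold change of -0.14 ± 0.18 was smaller than its SE. Under 3000 UMIs the groups overlapped, at 859 and 667 CPM in Diabetic against 987 and 773 CPM in Ctrl.

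Car14 (ENSMUSG00000038526, chr3:95897768-95904691, minus strand) encodes a membrane carbonic anhydrase that helps to buffer extracellular pH. It had 702 and 678 CPM in Diabetic cells with at least 3000 UMIs, against 598 and 704 CPM in Ctrl. The groups overlapped, and the log2 fold change was 0.06 ± 0.17. Of the 3 genes for potassium, water and pH, Car14 was the one whose groups overlapped. Annotated genes on the opposite strand overlap Aqp4, Glul, Car14 and Dio2, and how strand was handled in the counting is not given in the sources used here.

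Slc1a3 (ENSMUSG00000005360, chr15:8634124-8710764, minus strand) encodes GLAST, the main glutamate transporter of Müller glia. It had 1100 and 1220 CPM in Diabetic cells with at least 3000 UMIs, against 1348 and 1379 CPM in Ctrl. Both Diabetic values lay below both Ctrl values, with a log2 fold change of -0.26 ± 0.18. Under 3000 UMIs the values were 551 and 392 CPM in Diabetic against 517 and 595 CPM in Ctrl, and the groups overlapped.

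Glul (ENSMUSG00000026473, chr1:153899944-153909723, plus strand) encodes the enzyme that turns the glutamate taken up into glutamine. It had 9560 and 10175 CPM in Diabetic cells with at least 3000 UMIs, against 8582 and 11723 CPM in Ctrl. The 2 Diabetic libraries lay between the 2 Ctrl libraries, and the log2 fold change was -0.07 ± 0.23. The transporter and the enzyme of the same cycle thus stood differently, Slc1a3 without overlap and Glul with it, and the difference between the genes was not tested.

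Rlbp1 (ENSMUSG00000039194, chr7:79374870-79387048, minus strand) encodes CRALBP, which binds 11-cis retinoids in Müller glia and pigment epithelium. It had 2897 and 2629 CPM in Diabetic cells with at least 3000 UMIs, against 3177 and 3292 CPM in Ctrl. The groups did not overlap, with a log2 fold change of -0.25 ± 0.19. Under 3000 UMIs they did, at 3295 and 4148 CPM in Diabetic against 3208 and 4437 CPM in Ctrl.

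Dio2 (ENSMUSG00000007682, chr12:90724552-90738438, minus strand) encodes the deiodinase that makes active thyroid hormone from its precursor inside the cell. In cells with at least 3000 UMIs it was the lowest of the 10 genes and had the largest fitted change. It had 90.1 and 89.7 CPM in Diabetic cells with at least 3000 UMIs (60 and 48 UMIs), against 128 and 137 CPM in Ctrl (126 and 113 UMIs). The 2 groups stood apart by more than either group's spread, with a log2 fold change of -0.58 ± 0.20. Under 3000 UMIs it had 80.9 and 19.6 CPM in Diabetic against 111 and 92.8 CPM in Ctrl, from only 2 UMIs in Diabetic 2, 16 in Diabetic 1, 14 in Ctrl 1 and 12 in Ctrl 2.

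Crym (ENSMUSG00000030905, chr7:120186380-120202111, minus strand) encodes a cytosolic protein that binds thyroid hormone. It had 565 and 514 CPM in Diabetic cells with at least 3000 UMIs, against 590 and 643 CPM in Ctrl. The groups did not overlap, but the gap between Diabetic 1 and Ctrl 1 was narrow, and the log2 fold change was -0.22 ± 0.17. Under 3000 UMIs the groups overlapped, at 571 and 657 CPM in Diabetic against 525 and 703 CPM in Ctrl.

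Dkk3 (ENSMUSG00000030772, chr7:112116017-112159057, minus strand) encodes a secreted protein of the Dickkopf family, known for its other members as Wnt inhibitors. It had 2141 and 2021 CPM in Diabetic cells with at least 3000 UMIs, against 2316 and 2403 CPM in Ctrl, without overlap and with a log2 fold change of -0.21 ± 0.19. Clu (ENSMUSG00000022037, chr14:65968483-65981547, plus strand) encodes clusterin, a secreted chaperone. It had 3974 and 4155 CPM in Diabetic against 3533 and 3980 CPM in Ctrl. The groups overlapped, with a log2 fold change of 0.09 ± 0.20. Clu had the highest fitted value of the 10 genes, and its difference from Dkk3 was not tested.

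In Müller glia with under 3000 UMIs, 2 of the 10 genes, Kcnj10 and Dio2, were lower in both Diabetic libraries without overlap, and 8 overlapped. There, 15% of the 2590 genes tested were lower in both Diabetic libraries. Their median log2 fold change was -0.12, against -0.02 over all genes tested. edgeR called 0 genes in either direction (0% of the genes tested each way), also none of the 10, of which 1 had an unadjusted p under 0.05. DESeq2 called 0 genes too.

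The values depended on how the cells were delimited. With the 14 markers alone, the same 7 genes were lower in both Diabetic libraries, against 19.2% of the genes tested, and the median log2 fold change was -0.34. Kcnj10 was then at -0.58 ± 0.20, Rlbp1 at -0.45 ± 0.20, Crym at -0.43 ± 0.19 and Dio2 at -0.81 ± 0.20, with 0 of the 10 called, where edgeR called 1.07% of 9683 genes higher and 0.114% lower. With the Leiden clusters named as Müller glia, clustered without the 10 genes, all 10 were lower in both Diabetic libraries, against 19.9% of the genes tested, with a median of -0.79. Dio2 (-1.41), Kcnj10 (-0.99), Crym (-0.98), Rlbp1 (-0.90), Aqp4 (-0.80) and Slc1a3 (-0.77) were then called lower by edgeR, 6 of the 10, where edgeR called 1.06% of 11619 genes lower and 1.07% higher. The contrast was known when the genes were chosen, so nothing is read from that count in these clusters. In those clusters the 10 rod markers stood at 31876 and 27651 CPM in Diabetic against 16089 and 20372 CPM in Ctrl, and the 14 Müller glia markers at 13280 and 12021 CPM in Diabetic against 21600 and 17746 CPM in Ctrl. Rod RNA and Müller glia RNA were thus mixed in unequal proportion between the groups there, and the part of that mixture in the larger changes was not tested.

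**Figure D2:**
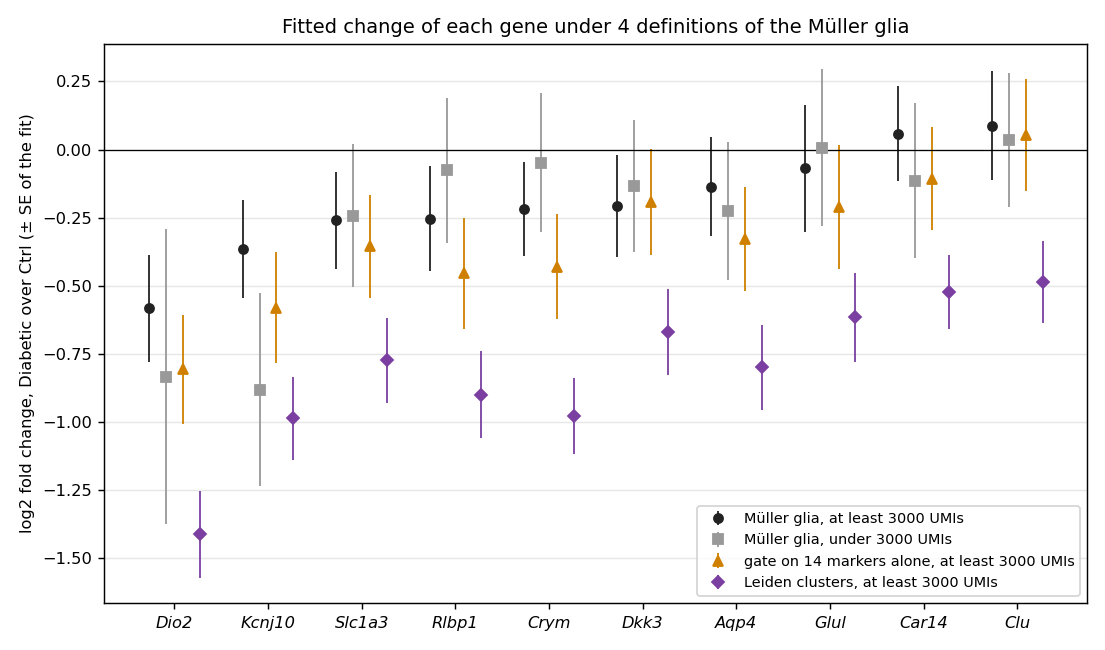
Fitted log2 fold change, Diabetic over Ctrl, with its SE (bars), for each gene under 4 definitions of the Müller glia. Values from the Leiden clusters lie lowest for each gene, from -1.41 for Dio2 to -0.49 for Clu, and those from the gate with at least 3000 UMIs run from -0.58 to 0.09.

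Weighing each cell equally, by the mean of per-cell CPM, left 5 of the 10 genes lower in both Diabetic libraries with at least 3000 UMIs: Rlbp1, Slc1a3, Dkk3, Crym and Dio2. With the same weighting 17% of the genes tested were lower in both, and 18.9% higher. Kcnj10, Aqp4, Glul and Car14 then overlapped, and Clu was higher in both Diabetic libraries. In these larger cells the gaps of Kcnj10 and Aqp4 were thus not seen with equal weights. In cells with under 3000 UMIs, equal weights left only Kcnj10 of the 10 genes lower in both Diabetic libraries, against 15.6% of the genes tested, with a mean per-cell level of 139 and 70.3 CPM in Diabetic against 219 and 173 CPM in Ctrl.

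Shares of cells with a UMI were compared at the depth found and at equal depth. Kcnj10 was found in 77.1% of Diabetic 1 cells with at least 3000 UMIs (95% Wilson interval 68.3 to 83.9%) and 73.1% in Diabetic 2 (59.8 to 83.2%), against 84.0% in Ctrl 1 (77.2 to 89.1%) and 82.4% in Ctrl 2 (72.2 to 89.4%). The median depths were 5025 and 7112 UMIs in Diabetic against 5652 and 9266 UMIs in Ctrl. Each cell was then thinned to 1000 UMIs in 1 random draw, with 0 cells left out. The thinned shares were 28.4% and 28.8% in Diabetic against 25.0% and 21.6% in Ctrl. The intervals overlapped, and cover counting error only. In rods, which should lack the channel, thinned shares were 0.607% and 0.902% in Diabetic against 0.421% and 0.691% in Ctrl, from cells with median depths of 3282 and 5653 UMIs in Diabetic against 3606 and 4742 UMIs in Ctrl. Thinning left out 553 and 121 rods in Diabetic and 446 and 162 in Ctrl. No order of the groups was read from these thinned Kcnj10 shares, whose intervals overlapped. In Müller glia the draw gave means of 0.303 and 0.288 Kcnj10 UMIs per cell in Diabetic against 0.278 and 0.270 in Ctrl. Mean per-cell CPM, which sets the mean expected after thinning, was 316 and 211 in Diabetic against 312 and 313 in Ctrl. The thinning was not repeated, so the spread between draws is not known.

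Over the 10 genes, thinned shares in cells with at least 3000 UMIs lay lowest for Dio2, at 10.8 to 15.4% over the 4 libraries, and highest for Glul, at 98.6 to 100%. In rods they were 0.16 to 0.194% for Dio2 and 26.6 to 31.3% for Glul. Each of the 10 genes was thus found in a larger share of Müller glia than of rods at equal depth. Between the groups, thinned shares in these Müller glia overlapped for Dio2, at 11.9 and 15.4% in Diabetic against 13.9 and 10.8% in Ctrl. They also overlapped for Aqp4, Crym and Clu. Slc1a3, Dkk3, Rlbp1 and Car14 were lower in both Diabetic libraries, and Kcnj10 and Glul were higher in both. The same shares over all genes are not given, and the thinning was not repeated, so nothing is read from these orders.

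Levels also differed between the smaller and the larger cells of the gate, in both groups alike. Relative to cells with at least 3000 UMIs, cells with under 3000 UMIs had less Slc1a3 (log2 fold change -1.20 ± 0.13), Aqp4 (-0.99 ± 0.12), Kcnj10 (-0.68 ± 0.17), Dkk3 (-0.67 ± 0.12) and Car14 (-0.59 ± 0.14), each lower in 4 of 4 libraries. Slc1a3 averaged 514 ± 87.1 CPM under 3000 UMIs and 1262 ± 128 CPM at or above it (SD, n = 4). Rlbp1 went the other way, with 3772 ± 614 CPM under 3000 UMIs and 2999 ± 297 CPM at or above it, higher in 4 of 4 libraries (0.40 ± 0.12). Glul was near equal, at 10113 ± 1518 CPM under 3000 UMIs and 10010 ± 1317 CPM at or above it. In this edgeR fit with the library as a block, which was added after the data were seen, 6 of the 10 genes were called lower in the smaller cells, the sixth being Clu, against 5.86% of 6326 genes tested, and 1 was called higher, against 5.45%. The choice of the genes looked at both sizes of cells, so nothing is read from these counts. Smaller cells also had higher mitochondrial shares, with medians of 8.40% and 9.85% in Diabetic and 12.01% and 10.0% in Ctrl. The 14 gate markers together had 18179 and 17349 CPM in Diabetic and 18681 and 18088 CPM in Ctrl in the smaller cells. In the larger cells they had 21401 and 20056 CPM in Diabetic and 24038 and 24602 CPM in Ctrl. Rod markers had 12594 and 10582 CPM in Diabetic and 15227 and 13040 CPM in Ctrl in the smaller cells. Their levels in the larger cells were 10963 and 9472 CPM in Diabetic and 10317 and 7684 CPM in Ctrl. The part of these in the difference was not tested.

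At the border of the split, the 10 genes together made up 2.14% of the UMIs of the 26 cells with 2500 to 2999 UMIs, and 2.32% of those of the 20 cells with 3000 to 3499 UMIs. In finer bins of UMIs per cell, Aqp4 had 706 and 718 CPM in Diabetic and 570 and 658 CPM in Ctrl in cells with 500 to 999 UMIs. It had 1671 and 2326 CPM in Diabetic and 1859 and 2060 CPM in Ctrl in cells with 5000 to 9999 UMIs. The bin of 3000 to 4999 UMIs held only 8 cells in Diabetic 2 and 6 in Ctrl 2, so its points for those libraries rest on few cells, and so does the bin from 10000 UMIs in Diabetic 1, with 9 cells.

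**Figure D3:**
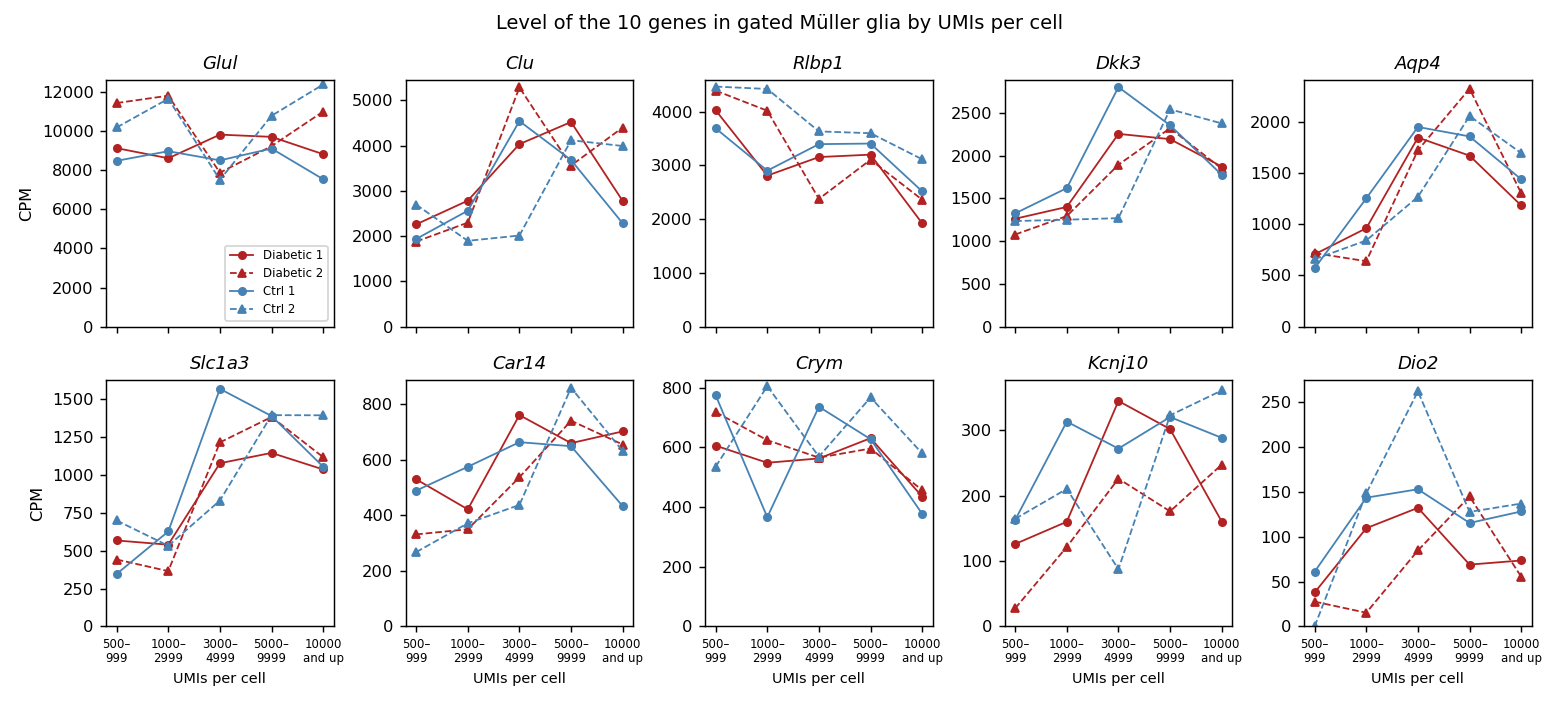
Level of each gene in CPM (vertical axes from 0) in gated Müller glia by UMIs per cell, for the 2 Diabetic libraries (red) and the 2 Ctrl libraries (blue). Aqp4 and Slc1a3 are lower in the 2 bins under 3000 UMIs than in the bin from 5000 to 9999 UMIs in each library, while Rlbp1 is higher in the bin from 500 to 999 UMIs than in the bin from 10000 UMIs in each library.

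Outside Müller glia the 10 genes were at a small part of these levels. Rods held 1.73% (Aqp4) to 4.81% (Rlbp1) of the Müller glia CPM, with a median of 2.40% over the 10 genes. Endothelial cells held 1.63% (Aqp4) to 15.1% (Glul), pericytes and smooth muscle 0.925 to 7.33%, and bipolar cells 5.36 to 14.9%. Microglia and macrophages held from 0% for Dio2 to 5.52% for Glul, though with 15 to 28 cells per library. Cones, with 14 to 59 cells per library, held 1.06 to 7.74%.

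**Figure D4:**
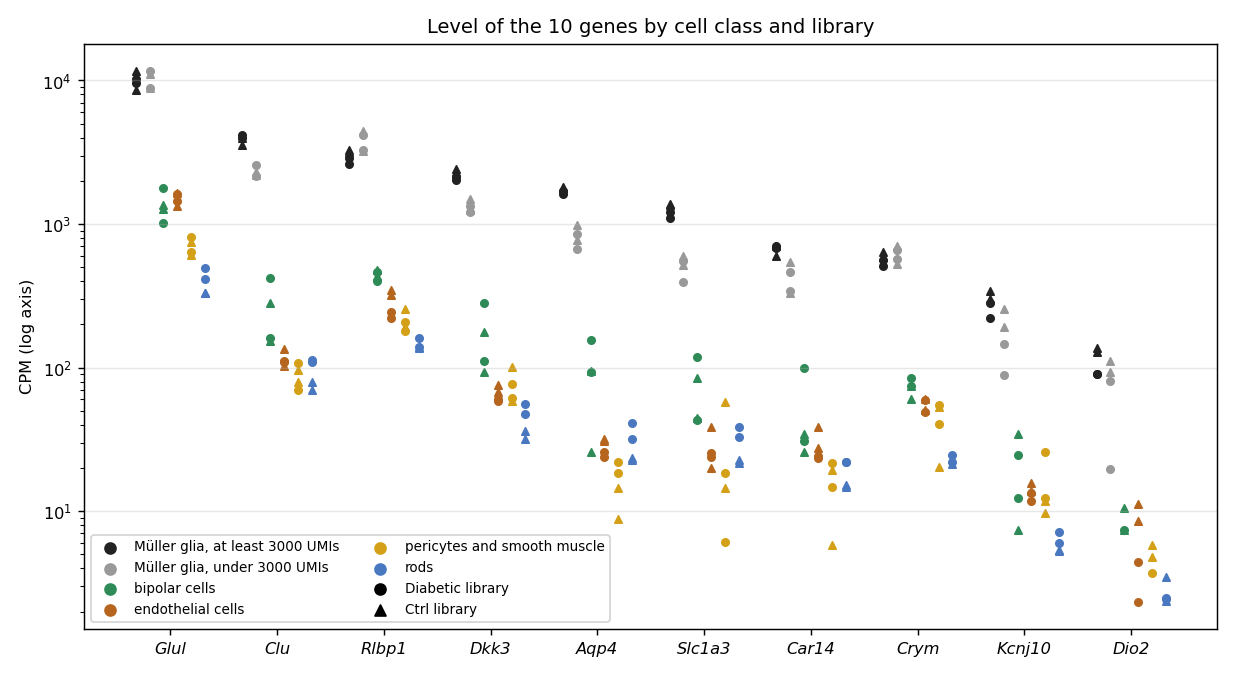
CPM (log axis) of each gene in 6 sets of cells, with 1 point for each Diabetic library (circles) and Ctrl library (triangles); Dio2 was at 0 UMIs in pericytes of Diabetic 1 and bipolar cells of Diabetic 2, which are not drawn. Both sets of Müller glia lie above the other 4 sets for each of the 10 genes.

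In rods the direction differed from that in Müller glia. There 8 of the 10 genes were higher in both Diabetic libraries than in either Ctrl library, 0 were lower and 2 (Crym and Dio2) overlapped, while 42.8% of the 17070 genes tested were higher in both Diabetic libraries. Aqp4 had 31.8 and 41.2 CPM in Diabetic rods against 22.8 and 23.5 CPM in Ctrl rods, Slc1a3 had 32.9 and 38.7 CPM in Diabetic against 22.7 and 21.7 CPM in Ctrl, and Clu had 109 and 113 CPM in Diabetic against 79.8 and 69.7 CPM in Ctrl. Aqp4, Slc1a3, Dkk3, Car14 and Clu were called higher, 5 of the 10, with log2 fold changes of 0.45 to 0.58. Of all genes tested, 6.3% were called higher and 5.77% lower. Since the choice of the genes looked at this class too, nothing is read from that count.

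The 14 Müller glia gate markers moved the same way in rods, at 1021 and 1059 CPM in Diabetic against 869 and 833 CPM in Ctrl, and rod markers the other way, at 65521 and 64815 CPM in Diabetic against 71856 and 74283 CPM in Ctrl. The part of Müller glia RNA outside its cells in these values was not tested.

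In endothelial cells 6 of the 10 genes were lower in both Diabetic libraries, against 23.4% of 12335 genes tested, and 4 overlapped. Dio2 had 4.44 and 2.32 CPM in Diabetic endothelial cells against 8.55 and 11.2 CPM in Ctrl, from 29 and 10 UMIs against 25 and 21, with a log2 fold change of -1.44 ± 0.38. Rlbp1 had 222 and 245 CPM in Diabetic against 321 and 348 CPM in Ctrl (-0.51 ± 0.11), and was the 1 gene called, lower, where 1.07% of all genes were called lower and 2.12% higher. The choice of the genes looked at endothelial cells too, so nothing is read from these counts. The Müller glia gate markers were lower there too, at 1662 and 1751 CPM in Diabetic against 1867 and 2151 CPM in Ctrl. Dio2 and Kcnj10 were the genes lower in both Diabetic libraries in Müller glia of both sizes and in endothelial cells. Kcnj10 was at 13.5 and 11.8 CPM in Diabetic endothelial cells against 15.7 and 13.8 CPM in Ctrl.

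In pericytes and smooth muscle, 5 of the 10 genes passed the filter on low counts, and in bipolar cells 8 did. None of them was called in either class, where edgeR called 8 genes higher (0.14%) and 7 lower (0.123%) of 5714 in pericytes, and 1 higher (0.016%) and 4 lower (0.0639%) of 6259 in bipolar cells. The number of the 10 genes with an unadjusted p under 0.05 was 0 in pericytes and 2 in bipolar cells, and DESeq2 was not run in these classes.

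**Figure D5:**
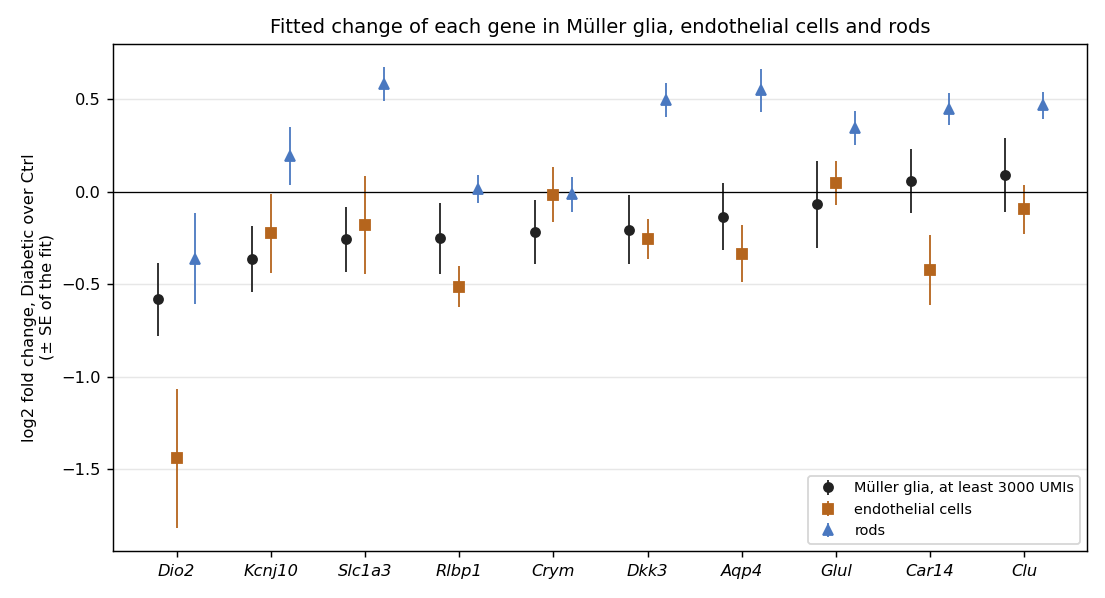
Fitted log2 fold change, Diabetic over Ctrl, with its SE (bars), for each gene in Müller glia with at least 3000 UMIs, endothelial cells and rods. For 6 of the 10 genes the value is above 0 in rods and below 0 in Müller glia, and Dio2 and Crym are below 0 in all 3.

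Genes of the same tasks that are neither among the 10 nor in the gate were followed in 5 lists, from which edgeR called 0 genes in Müller glia with at least 3000 UMIs. Of 15 genes for potassium, water and pH handling, 11 were tested, with a median log2 fold change of -0.07, and the most abundant, Car2, a cytosolic carbonic anhydrase, had 1937 and 1988 CPM in Diabetic against 2052 and 2218 CPM in Ctrl. Of 17 genes for glutamate, amino acid and glutathione handling, 14 were tested, with a median of -0.10, and the glutamate transporter gene Slc1a2 had 720 and 510 CPM in Diabetic against 756 and 623 CPM in Ctrl. Of 13 genes for retinoid handling, 9 were tested, with a median of 0.23. Of 13 genes of the thyroid hormone pathway, 8 were tested, with a median of -0.12, and the corepressor gene Ncor1 had 376 and 353 CPM in Diabetic against 408 and 362 CPM in Ctrl. Of 16 transcription factor genes of Müller glia, 15 were tested, with a median of -0.16 and 12 of 15 below 0, and Pax6 had 574 and 570 CPM in Diabetic against 589 and 587 CPM in Ctrl. The median of all genes tested was -0.0027. Unadjusted p-values under 0.05 numbered 1, 2, 1, 1 and 0 in these lists. With the 14 markers alone, 2 genes of the first list were called higher, among them Slc4a4, a bicarbonate cotransporter gene, named after its values were seen.

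In the sixth list, of 30 genes of reactive gliosis, 20 were tested. Their fitted log2 fold changes were above 0 for 16 and below 0 for 4. edgeR called 4 higher and 0 lower, where 0.15% of all genes tested were called higher and 0.0215% lower. The median log2 fold change was 0.31. The list was chosen with earlier results of these data known, so its counts and p-values are a description. Mt1 and Mt2 encode metallothioneins, small proteins that bind zinc and copper. Mt1 had 956 and 929 CPM in Diabetic against 469 and 483 CPM in Ctrl (log2 fold change 0.96 ± 0.17, edgeR adjusted p = 0.0111). Mt2 had 158 and 166 CPM in Diabetic against 69.9 and 71.8 CPM in Ctrl (1.17 ± 0.19, edgeR adjusted p = 0.00684). The mean of the Diabetic libraries was 1.98 times that of the Ctrl libraries for Mt1 and 2.29 times for Mt2. Socs3, a feedback inhibitor of cytokine signalling, had 25 UMIs in each Diabetic library against 4 and 10 UMIs in Ctrl (2.38 ± 0.44, edgeR adjusted p = 0.0123). Serpina3n, a secreted protease inhibitor, was the fourth, with 9 UMIs in each Diabetic library against 0 and 1 in Ctrl. It turned to -0.51 with a looser gate. With the 14 markers alone Mt1 and Mt2 were called, but not Socs3 (edgeR adjusted p = 0.451) or Serpina3n (edgeR adjusted p = 0.667). With a stricter gate none of the 4 was called, and DESeq2 called only Mt1. Without Diabetic 2, Mt1 (edgeR adjusted p = 0.118) and Socs3 (edgeR adjusted p = 0.0550) were no longer called, and without Diabetic 1, Mt1 (edgeR adjusted p = 0.213) was not. Astrocyte, neutrophil, microglial and endothelial markers were higher in these Diabetic cells as well, with the values given above, and their part in the rise was not tested.

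Gfap had 19.5 and 59.8 CPM in Diabetic against 30.4 and 24.3 CPM in Ctrl, from 13, 32, 30 and 20 UMIs, and the groups overlapped (0.44 ± 0.39, edgeR adjusted p = 0.810). With the 14 markers alone it had 92.4 and 52.2 CPM in Diabetic against 30.4 and 24.5 CPM in Ctrl, and was called higher (1.38 ± 0.30, edgeR adjusted p = 0.0187). Over the 15 alternatives its log2 fold change ran from -0.53, without Diabetic 2, to 1.38, and 1 of them called it, with edgeR adjusted p from 0.0187 to 1.00. With the second level of the gate, most of its UMIs lay in few barcodes: those with at least 3 UMIs of the astrocyte markers Pax2 and S100b, 5 and 5 in Diabetic and 2 and 3 in Ctrl, held 10 of 13 and 32 of 32 Gfap UMIs in Diabetic and 28 of 30 and 16 of 20 in Ctrl. Without these barcodes 3 genes of the gliosis list were called higher, where edgeR called 0.0866% of 9243 genes higher and 0% lower. Of the 10 homeostatic genes 6 were then lower in both Diabetic libraries, against 15.4% of the genes tested, while Aqp4 overlapped and Clu was higher in both. Vim, another filament gene, had 929 and 943 CPM in Diabetic against 634 and 791 CPM in Ctrl (0.37 ± 0.18, edgeR adjusted p = 0.547).

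The 6 other genes whose log2(CPM + 1) followed the mean of the 10 most closely, over 24 profiles (6 sets of cells in 4 libraries) and 12220 genes, were Lhx2 (Pearson r = 0.988), Trpm3 (0.987), Rgs2 (0.987), Abca8a (0.986), Gpr37 (0.981) and Espn (0.980). Abca8a, Gpr37 and Espn are markers of the gate, and the profiles share libraries and cells. Lhx2, Trpm3, Abca8a, Gpr37 and Espn were lower in both Diabetic libraries in Müller glia with at least 3000 UMIs, where 17.1% of all genes tested were. Their log2 fold changes ran from -0.42 ± 0.18 for Abca8a to -0.21 ± 0.18 for Gpr37. Since these genes were picked on profiles that include Müller glia of the same libraries, nothing is read from their number. Rgs2 overlapped (-0.07 ± 0.18). Among the 10 genes, Clu and Dkk3 followed their common mean most closely and Dio2 least (r = 0.926).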

How the data were processed

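The deposited files hold raw UMI counts per gene and barcode, which the authors made with Cell Ranger 7.0.0, per the submitters' processing notes, which also name STAR 2.7.10b and the build mm10. No normalization had been applied to these counts. Barcodes under 500 UMIs or 300 genes, or above a mitochondrial share of 20%, were dropped. Doublets were removed by Scrublet score, at 0.8% per 1000 barcodes in each library (scanpy 1.11.5). Müller glia were gated by the share of UMIs on 14 markers (at least 0.3 of the level in their richest barcodes), with at least 4 detected, other classes low, and at least 0.4 of that level on the 12 markers other than Apoe and Dapl1. The last step was added after the data were seen. UMIs were summed per library and fitted with edgeR 4.0.16 (TMM, filterByExpr, quasi-likelihood F test, two-sided, Benjamini-Hochberg over all genes tested) in R 4.3.3. DESeq2 1.42.0, other gates, Leiden clusters, filters, splits and leaving out each library were alternatives. Classes with at least 20 cells in each library were fitted. Levels are CPM without a pseudocount, errors the SD over libraries or the SE of the fit. The precision is set by the UMIs per gene, which are given for low genes. On counts simulated from the Müller glia with at least 3000 UMIs, over 8992 genes, the fit recovered 45.9% of 98 genes changed by a log2 fold change of 1 and 93.0% of 100 changed by 2.

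The 10 genes, the lists and the rules were chosen with earlier results of these data known. All 10 genes were named. From each list, up to 3 called genes with the largest change and at least 20 CPM were named, or the most abundant where none was called; that of the retinoid list is not reported here. The 6 genes most alike to the 10, Gfap and Vim were named as well; Serpina3n, below that level, and Optc and Penk were named after their values were seen. Library numbers 1 and 2 occur in both groups, but the deviations of same-numbered libraries were not correlated (r = 0.0447 over 9309 genes), so the numbers were not used as pairs.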

Additional observations from a re-analysis of the deposited data

Results flagged for a closer look

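For several of the 10 genes the CPM of both Diabetic libraries lay below both Ctrl libraries in Müller glia with at least 3000 UMIs, where none of the 10 was called, and above both in another class. In rods, Slc1a3, Dkk3 and Aqp4 were called, and Kcnj10 and Rlbp1 were not. The difference between the classes was not tested. Between rods and these Müller glia, the log2 ratio of the group means (Diabetic over Ctrl) differed by 0.924 for Slc1a3, 0.788 for Dkk3, 0.765 for Aqp4, 0.644 for Kcnj10 and 0.347 for Rlbp1. Between pericytes with smooth muscle and these Müller glia it differed by 1.18 for Kcnj10 and 0.913 for Aqp4, from 2 to 7 UMIs per library in that class.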

How the results depend on the processing

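In Müller glia with at least 3000 UMIs the median log2 fold change of the 10 genes stayed below 0 under all 20 alternatives, from -0.79 (Leiden clusters) to -0.04 (cells thinned to 1000 UMIs), and in the smaller cells under all 18, from -0.28 to -0.02. Only the Leiden clusters moved it by more than its SE, and only they gave calls among the 10 genes (6). Dio2, Kcnj10, Slc1a3, Rlbp1, Crym, Dkk3 and Aqp4 were below 0 in all 17 refits with at least 3000 UMIs, but their sizes moved: Kcnj10 ran from -0.99 (Leiden clusters) to -0.09 (stricter gate) and was at -0.56 without Diabetic 1, and Dio2 ran from -1.41 (Leiden clusters) to -0.40 (stricter gate). Counts over all genes depended more on the setting. In the larger cells edgeR called 14 higher and 2 lower. The counts were 3 and 0 with DESeq2, 1 lower with DESeq2 size factors, 124 and 123 with Leiden clusters, 104 and 11 with the 14 markers alone, 57 and 8 with the looser gate, 3 and 0 with the stricter gate, 37 and 19 with no filter, 1 lower with no doublet removal, and 8 and 0 without Pax2 or S100b barcodes. Leaving out 1 library gave 13 to 138 higher and 0 to 42 lower. In the smaller cells, where edgeR called 0, the counts were 6 and 4 with Leiden clusters, 1 higher with the 14 markers alone, 5 higher with no filter and 1 higher with the split at 2000 UMIs. Leaving out 1 library there gave 0 to 6 higher and 0 to 5 lower. The genes of the 6 lists called higher, 4 in the larger cells, numbered 1 with DESeq2, 2 with Leiden clusters (and 4 lower) and 0 with the stricter gate, with 1 to 7 higher and 0 to 1 lower when 1 library was left out. Serpina3n turned to -0.51 with the looser gate. The replicate block, for numbers that were not shown to pair the libraries, gave 62 higher and 24 lower in the larger cells, 13 and 11 in the smaller, and 1 list gene higher there. The gate with 14 markers alone and the removal of Pax2 or S100b barcodes were chosen after seeing the data. The cause of these shifts was not tested. Depth limits the low genes: Dio2 had 48 to 126 UMIs per library in the larger cells and 2 to 16 in the smaller.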
